A study of Mus musculus with 24 samples.

Results

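Fatty acid oxidation was followed in mouse liver through 41 genes of mitochondria and peroxisomes, which were picked by name for their place in the pathway out of 37074 gene names on the array. They were chosen with earlier results of these data known, so the shares of all genes given beside them are descriptive. All 41 were measured well enough to be tested, beside 21372 genes tested in all. Of the 41 genes, 18 encode proteins of mitochondria, 14 encode proteins of peroxisomes, and 9 encode acyl-CoA synthetases or enzymes found in more than 1 place. The 24 arrays came from livers of male mice aged 12 weeks, 6 mice in each of 4 groups. The LWT groups (labelled p110aLWT) carried floxed alleles of Pik3ca and no Cre, and their LKO littermates (p110aLKO) carried the same alleles with albumin-Cre, which removes part of Pik3ca, the gene of p110α, in hepatocytes. LWT_Fed and LKO_Fed mice ate freely until killed. LWT_Fasted and LKO_Fasted mice went without food for 24 h from Zeitgeber time (ZT) 16, and all mice were killed at ZT 16. Because the albumin promoter drives Cre, liver cells that do not express albumin keep the gene.

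In beta-oxidation, fatty acids are first bound to coenzyme A, and long chains then cross into mitochondria as carnitine esters, where a repeated cycle of dehydrogenation, hydration, a further dehydrogenation and thiolysis shortens the chain. Peroxisomes run a parallel cycle that takes very long, branched and dicarboxylic acids and passes shortened chains on as carnitine esters. In liver this supply of energy and of ketone bodies is drawn on when food is withdrawn and insulin is low, and many of its genes are known targets of the fatty acid receptor PPARα. The questions were how far these transcripts rose with fasting, and whether hepatocyte p110α, an enzyme subunit that makes a lipid messenger of insulin signalling, bore on their fed level and on their rise.

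Fasting raised most of the 41 genes in both genotypes, and the fasting change was more positive in LKO livers for 18 of the 41 genes, against 3.95% of all genes tested. That count fell to 7 without array weights and to 14 without LKO_Fasted replicates 1 and 2, and it rests on 1 probe per gene. Ehhadh, a bifunctional enzyme of peroxisomes, Crat, which handles short acyl carnitines, and Pex11a, which acts in peroxisome division, rose most in both genotypes. In the fed state peroxisomal genes such as Pex11a and Acaa1b were lower in LKO than in LWT livers, whereas in the fasted state Ehhadh, Acsl4 and Cpt1b were higher in LKO. A gene is said here to rise or fall where its adjusted p from limma was at most 0.05, and to be called where it also changed by more than 1.5-fold. Levels are normalized log2 signals of 1 probe per gene. They are given as the lowest, the median and the highest of 6 mice, and they compare groups for a gene but not genes with each other. Fold changes are log2 values from the weighted model with a slide term, so they can depart from differences of medians.

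Over the series, the median spot signal ranged from 69 to 88.5 and 54.7% to 63.0% of spots were well above background. All 8 hepatocyte markers were well above background in every group, and their mean level lay between 17.22 and 17.54 in each mouse. The Pik3ca probe did not read lower in arrays labelled LKO, giving log2 differences from LWT of 0.58 (SE 0.114, adjusted p = 0.00156) in fed mice and -0.02 (SE 0.121, adjusted p = 0.931) in fasted mice. Whether that probe lies in the part removed by Cre was not examined. The array of LKO_Fasted replicate 4 stood apart for the oxidation genes. It was the lowest LKO_Fasted mouse for 34 of the 41 genes, and the fit gave it a weight of 0.356, where 1 is typical. The counts below are also given without LKO_Fasted replicates 1 and 2, left out together. In bulk liver, fewer cells of a type and less RNA per cell cannot be told apart.

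The sequences before the start sites of 4 genes on which the results turn are shown because these genes rose together on fasting in both genotypes. RefSeq gives a promoter for 33 of the 41 genes on GRCm38.p6, and 250 bases before the start were read for each. Hadha and Hadhb, which encode the subunits of the trifunctional protein, start 273 bases apart on opposite strands, and their windows share 228 bases. Only the Hadhb window is printed. Capitals mark a GC box (GGGCGG or CCGCCC) in Hadhb at chr5:30155003-30155252 on the plus strand, the nuclear receptor motif AGGTCA or TGACCT in Cpt1a at chr19:3323051-3323300 on the plus strand, and a CCAAT box (CCAAT or ATTGG) in Ehhadh at chr16:21787835-21788084 and in Acaa1b at chr9:119157094-119157343, both on the minus strand.
Hadhb: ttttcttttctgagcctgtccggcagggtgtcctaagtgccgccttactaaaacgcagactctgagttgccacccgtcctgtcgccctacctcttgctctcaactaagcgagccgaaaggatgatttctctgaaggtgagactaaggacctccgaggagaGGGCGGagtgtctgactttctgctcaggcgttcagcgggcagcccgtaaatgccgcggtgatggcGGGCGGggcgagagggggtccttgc
Cpt1a: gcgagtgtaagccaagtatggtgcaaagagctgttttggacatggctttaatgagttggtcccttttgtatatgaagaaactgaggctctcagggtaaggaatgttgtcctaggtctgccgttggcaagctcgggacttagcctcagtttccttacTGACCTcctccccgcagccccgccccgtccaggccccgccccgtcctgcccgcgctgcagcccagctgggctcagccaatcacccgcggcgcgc
Ehhadh: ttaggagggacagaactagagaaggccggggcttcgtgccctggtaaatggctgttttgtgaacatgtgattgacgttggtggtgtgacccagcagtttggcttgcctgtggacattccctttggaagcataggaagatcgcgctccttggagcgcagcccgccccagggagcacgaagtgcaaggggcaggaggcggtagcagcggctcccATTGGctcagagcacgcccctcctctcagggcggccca
Acaa1b: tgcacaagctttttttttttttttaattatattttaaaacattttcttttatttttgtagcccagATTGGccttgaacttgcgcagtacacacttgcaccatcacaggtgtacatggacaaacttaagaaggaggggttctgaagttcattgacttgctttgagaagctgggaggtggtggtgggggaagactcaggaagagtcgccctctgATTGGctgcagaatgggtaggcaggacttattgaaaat

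In Ehhadh and in Acaa1b a CCAAT box in reverse orientation lay at positions -38 to -34, counted back from the start site. The Cpt1a motif lay at -94 to -89, and Hadhb held 2 GC boxes. Searched on both strands, AGGTCA was found before 5 of the 33 genes, namely Acadm, Acadvl, Cat, Cpt1a and Echs1, and in 14% of all 32851 promoter windows of this length. CCAAT was found before 17 of the 33 and in 33.8% of all windows, and GGGCGG before 22 of the 33 and in 32.7%. The direct repeat AGGNCANAGGNCA, a relaxed form of the PPAR element that contains the exact form AGGTCANAGGTCA, was found before none of the 33 genes and in 0.338% of all windows. FOXO motifs of the form GTAAACA were likewise before none of them and in 3.17% of all windows. These matches describe letters in a short window only.

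**Figure D1:**
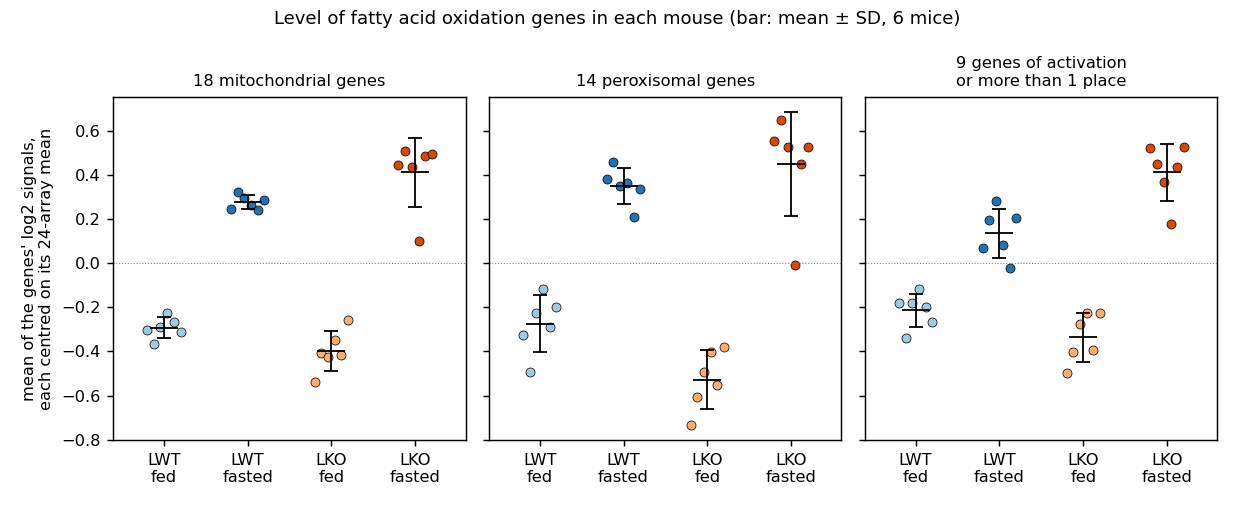
Mean level of the mitochondrial, peroxisomal and remaining oxidation genes in each mouse (vertical axis: mean of log2 signals after each gene was centred on its mean over 24 arrays; horizontal axis: the 4 groups; points: mice; bars: mean ± SD, n = 6). The fasted mice lie above the fed mice of their genotype in all 3 panels, and the lowest LKO_Fasted point, at 0.10, -0.01 and 0.18 in the panels from left to right, is replicate 4.

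The level of the whole set was first described per mouse. Mitochondrial genes, each centred on its mean over the 24 arrays, averaged -0.36, -0.30 and -0.22 in LWT_Fed (lowest, median and highest mouse), 0.24, 0.28 and 0.33 in LWT_Fasted, -0.54, -0.41 and -0.26 in LKO_Fed and 0.10, 0.47 and 0.51 in LKO_Fasted. Peroxisomal genes averaged -0.49, -0.26 and -0.12 in LWT_Fed, 0.21, 0.36 and 0.46 in LWT_Fasted, -0.73, -0.52 and -0.38 in LKO_Fed and -0.01, 0.53 and 0.65 in LKO_Fasted. Within a genotype the fasted and fed mice did not overlap in either set. Between genotypes the groups overlapped in both feeding states, and LKO_Fasted replicate 4 alone lay below the LWT_Fasted mice. For mitochondrial genes the other LKO_Fasted mice, at 0.44 to 0.51, all lay above the highest LWT_Fasted mouse. For peroxisomal genes LKO_Fasted replicate 5, at 0.452, also lay under the highest LWT_Fasted mouse.

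On 24 h of fasting, 30 of the 41 genes rose in LWT livers, against 19.4% of all genes tested, and 3 fell, against 21.3%. Calls went to 18 genes higher, against 4.79% of all genes tested, and to 1 gene lower, against 5.20%. In LKO livers 33 rose, against 19.6%, and 3 fell, against 21.7%. There 25 were called higher, against 5.87% of all genes, and 1 was called lower, against 6.82%. The median log2 fold change of the 41 genes was 0.51 in LWT and 0.94 in LKO, and over all genes it was -0.01 and -0.02. Every fasted mouse lay above every fed mouse for 24 of the 41 genes in LWT and 27 in LKO, and over all genes tested this share was 10.9% in each genotype. Without LKO_Fasted replicate 4 the LKO count stayed at 25 called higher with a median of 0.98, and without replicates 1 and 2 it was 25 with a median of 0.94. Within the 3 slides, each with 2 mice of a group, the median change was 0.56, 0.56 and 0.45 in LWT and 0.72, 1.14 and 0.95 in LKO. The slide with the smallest LKO change held LKO_Fasted replicate 4. Markers of hepatocyte position and of other cells moved on fasting as well. In LWT 2 of 6 periportal, 1 of 6 pericentral and 1 of 6 adipose markers were called higher, and 1 of 3 exocrine pancreas, 1 of 6 stellate cell and 1 of 5 cholangiocyte markers lower. In LKO 1 of 6 periportal, 1 of 6 pericentral and 1 of 6 adipose markers were called higher, and 2 of 6 periportal, 2 of 6 pericentral, 1 of 3 exocrine pancreas, 1 of 6 stellate cell and 2 of 5 cholangiocyte markers lower. The mean level of the periportal list ranged from 15.16 to 15.58 in LWT_Fed, 15.81 to 15.99 in LWT_Fasted, 15.34 to 15.89 in LKO_Fed and 15.29 to 16.31 in LKO_Fasted, and the part of these markers in the fasting changes was not tested.

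The carnitine shuttle, which carries long-chain acyl groups across the mitochondrial membranes, rose as a whole, with 3 of 3 genes called in both genotypes. Cpt1a encodes the liver form of the outer membrane carnitine palmitoyltransferase, the regulated entry step, and its probe lies on chromosome 19 at 3385374 to 3385433 of mm9. Cpt1a read 14.19, 14.36 and 14.48 in LWT_Fed, 15.50, 15.59 and 15.69 in LWT_Fasted, 14.05, 14.23 and 14.47 in LKO_Fed and 15.54, 15.89 and 15.97 in LKO_Fasted. Cpt1a rose by 1.27 (SE 0.0738, adjusted p = 2.97e-11) on fasting in LWT and rose by 1.64 (SE 0.0804, adjusted p = 1.36e-12) in LKO. Every fasted mouse of a genotype was above every fed mouse, and replicate 4 was the lowest LKO_Fasted mouse. Cpt1b is the muscle form of the same enzyme, and it was dim in liver (probe on chromosome 15 at 89246836 to 89246895). Cpt1b read 6.58, 6.73 and 6.92 in LWT_Fed, 7.40, 8.01 and 8.55 in LWT_Fasted, 6.41, 6.66 and 6.80 in LKO_Fed and 7.82, 8.62 and 9.23 in LKO_Fasted. Cpt1b rose by 1.23 (SE 0.165, adjusted p = 3.65e-06) on fasting in LWT and rose by 2.10 (SE 0.179, adjusted p = 4.62e-09) in LKO. Of 8 skeletal muscle markers, Acta1, Ckm and Myh1 were not well above background on any array, and the mean level of the 4 that were kept lay between 6.42 and 6.75 in all 4 groups. Cpt2, on the inner membrane, returns the acyl group to coenzyme A. Cpt2 read 14.40, 14.55 and 14.74 in LWT_Fed, 15.23, 15.37 and 15.63 in LWT_Fasted, 14.20, 14.55 and 14.64 in LKO_Fed and 15.30, 15.58 and 15.74 in LKO_Fasted. Cpt2 rose by 0.78 (SE 0.071, adjusted p = 1.78e-08) on fasting in LWT and rose by 1.14 (SE 0.0774, adjusted p = 1.59e-10) in LKO. Fed and fasted mice did not overlap for Cpt2 in either genotype.

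Among the acyl-CoA dehydrogenases, which take the first step of the mitochondrial cycle and differ by chain length, the genes for long and medium chains rose most. Acadm serves medium chains. Acadm read 14.82, 15.12 and 15.26 in LWT_Fed, 16.04, 16.12 and 16.24 in LWT_Fasted, 14.85, 14.98 and 15.28 in LKO_Fed and 15.76, 16.21 and 16.41 in LKO_Fasted. Acadm rose by 1.01 (SE 0.0782, adjusted p = 1.53e-09) on fasting in LWT and rose by 1.21 (SE 0.0852, adjusted p = 2.62e-10) in LKO. Acadl serves long chains. Acadl read 12.84, 13.06 and 13.29 in LWT_Fed, 13.85, 13.95 and 14.17 in LWT_Fasted, 12.87, 13.14 and 13.33 in LKO_Fed and 14.10, 14.46 and 14.63 in LKO_Fasted. Acadl rose by 0.85 (SE 0.0803, adjusted p = 3.15e-08) on fasting in LWT and rose by 1.34 (SE 0.0874, adjusted p = 9.6e-11) in LKO. Acadvl, bound to the inner membrane, serves very long chains. Acadvl read 15.82, 16.03 and 16.15 in LWT_Fed, 16.29, 16.42 and 16.65 in LWT_Fasted, 15.79, 15.92 and 16.01 in LKO_Fed and 16.46, 16.61 and 16.66 in LKO_Fasted. Acadvl rose by 0.36 (SE 0.0551, adjusted p = 1.72e-05) on fasting in LWT and rose by 0.70 (SE 0.06, adjusted p = 4.48e-09) in LKO. For these 3 genes the fasted mice lay above the fed mice of their genotype without overlap. Acads, for short chains, rose by 0.24 (SE 0.0653, adjusted p = 0.00569) in LWT and 0.35 (SE 0.0712, adjusted p = 0.000431) in LKO and was not called. Acadsb, for short branched chains, gave -0.10 (SE 0.0813, adjusted p = 0.364) in LWT and fell by 0.35 (SE 0.0886, adjusted p = 0.00285) in LKO, so that not every dehydrogenase rose. Of its 2 further probes, 1 gave 0.03 (adjusted p = 0.77) in LWT and fell by 0.41 (adjusted p = 5.13e-05) in LKO, and the other rose by 0.30 (adjusted p = 0.0249) and gave -0.25 (adjusted p = 0.0786).

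The trifunctional protein carries out the remaining steps for long chains, and both its genes rose together. Hadha encodes the subunit with hydratase and hydroxyacyl-CoA dehydrogenase activity (probe on chromosome 5 at 30446215 to 30446274). Hadha read 11.00, 11.09 and 11.41 in LWT_Fed, 11.51, 11.61 and 12.15 in LWT_Fasted, 10.82, 11.05 and 11.16 in LKO_Fed and 11.60, 12.09 and 12.33 in LKO_Fasted. Hadha rose by 0.63 (SE 0.0924, adjusted p = 1.21e-05) on fasting in LWT and rose by 1.11 (SE 0.101, adjusted p = 1.2e-08) in LKO. Its LWT call was lost at 0.55 without array weights and at 0.52 without LWT_Fasted replicate 6. Hadhb encodes the thiolase subunit (probe on chromosome 5 at 30510925 to 30510984). Hadhb read 14.12, 14.21 and 14.34 in LWT_Fed, 15.06, 15.14 and 15.28 in LWT_Fasted, 14.07, 14.27 and 14.42 in LKO_Fed and 15.09, 15.51 and 15.70 in LKO_Fasted. Hadhb rose by 0.90 (SE 0.0676, adjusted p = 9.4e-10) on fasting in LWT and rose by 1.27 (SE 0.0736, adjusted p = 1.58e-11) in LKO. Neither gene overlapped between fed and fasted mice. The enzymes that serve shorter chains moved less. Hadh, the short-chain hydroxyacyl-CoA dehydrogenase, rose by 0.34 (SE 0.0996, adjusted p = 0.00907) in LWT and 0.45 (SE 0.108, adjusted p = 0.00204) in LKO. Acaa2, a matrix thiolase, gave 0.13 (SE 0.0562, adjusted p = 0.0784) in LWT and rose by 0.30 (SE 0.0613, adjusted p = 0.000363) in LKO. Echs1, the short-chain hydratase, gave -0.02 (SE 0.0613, adjusted p = 0.831) and -0.14 (SE 0.0667, adjusted p = 0.092), while a further Echs1 probe fell by 0.23 (adjusted p = 0.00787) in LKO.

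Eci1 and Decr1 encode the isomerase and the dienoyl-CoA reductase that bring unsaturated chains back into the cycle. Eci1 read 14.99, 15.22 and 15.41 in LWT_Fed, 15.74, 15.88 and 16.07 in LWT_Fasted, 14.67, 14.86 and 15.15 in LKO_Fed and 15.38, 16.12 and 16.17 in LKO_Fasted. Eci1 rose by 0.67 (SE 0.0949, adjusted p = 6.63e-06) on fasting in LWT and rose by 1.21 (SE 0.103, adjusted p = 4.91e-09) in LKO. Decr1 read 15.62, 15.83 and 15.96 in LWT_Fed, 16.22, 16.46 and 16.83 in LWT_Fasted, 15.40, 15.62 and 15.82 in LKO_Fed and 16.33, 16.69 and 16.78 in LKO_Fasted. Within a genotype, fasted and fed mice did not overlap for either gene. Decr1 rose by 0.57 (SE 0.0811, adjusted p = 7.87e-06) on fasting in LWT and rose by 1.11 (SE 0.0884, adjusted p = 1.61e-09) in LKO. Its LWT value lay just short of 1.5-fold and was called under 4 other settings, at 0.59 to 0.65, and in 4 fits with 1 mouse left out, LWT_Fed replicate 1 or 4 or LWT_Fasted replicate 1 or 5, at 0.60 to 0.61. Electrons from the dehydrogenases pass through the flavoprotein of Etfa and Etfb to the oxidoreductase of Etfdh in the inner membrane. Etfdh read 13.52, 13.77 and 13.92 in LWT_Fed, 14.54, 14.71 and 15.11 in LWT_Fasted, 13.29, 13.53 and 13.77 in LKO_Fed and 14.54, 14.91 and 15.08 in LKO_Fasted. Etfdh rose by 0.93 (SE 0.0744, adjusted p = 2.65e-09) on fasting in LWT and rose by 1.42 (SE 0.0811, adjusted p = 1.43e-11) in LKO. The flavoprotein subunits moved little beside Etfdh. Etfb rose by 0.16 (SE 0.0511, adjusted p = 0.0179) in LWT and 0.40 (SE 0.0557, adjusted p = 5.61e-06) in LKO. Etfa gave 0.10 (SE 0.0518, adjusted p = 0.137) in LWT and rose by 0.21 (SE 0.0564, adjusted p = 0.0041) in LKO, and a further Etfa probe rose by 0.19 (adjusted p = 0.00182) in LWT.

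**Figure D2:**
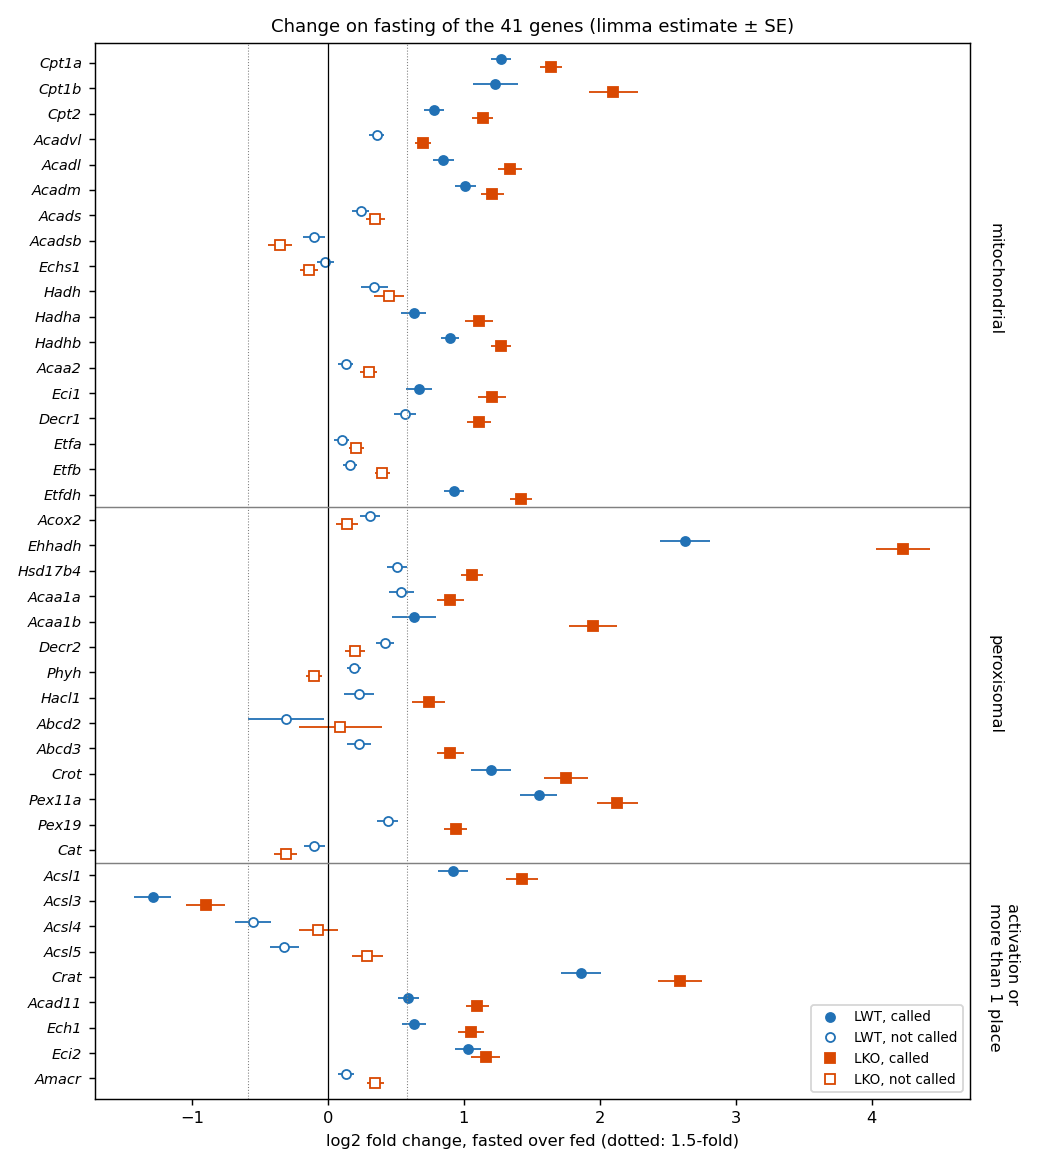
Change of each of the 41 genes on fasting (horizontal axis: log2 fold change, fasted over fed, limma estimate ± SE; vertical axis: genes by place; circles: LWT; squares: LKO; filled: called; dotted lines: 1.5-fold either way). Most squares lie to the right of their circles, Ehhadh reaches 4.23 in LKO, and Acsl3 lies to the left of 0 in both genotypes.

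Peroxisomal beta-oxidation genes showed a wider range, from little change to the largest change of the 41. Ehhadh encodes the L-bifunctional enzyme, which hydrates and dehydrogenates dicarboxylic and other chains (probe on chromosome 16 at 21761914 to 21761973). Ehhadh read 12.74, 12.90 and 13.51 in LWT_Fed, 14.85, 15.67 and 15.90 in LWT_Fasted, 12.37, 12.69 and 12.99 in LKO_Fed and 15.85, 16.95 and 17.31 in LKO_Fasted. Ehhadh rose by 2.63 (SE 0.184, adjusted p = 3.44e-10) on fasting in LWT and rose by 4.23 (SE 0.2, adjusted p = 1.06e-12) in LKO, which is 6.2-fold in LWT and 18.7-fold in LKO. All fasted mice lay far above all fed mice, and 5 of the 6 LKO_Fasted mice lay above every LWT_Fasted mouse. Hsd17b4 encodes the D-bifunctional enzyme, which also handles branched chains. Hsd17b4 read 15.12, 15.31 and 15.56 in LWT_Fed, 15.78, 15.88 and 16.10 in LWT_Fasted, 14.89, 15.08 and 15.25 in LKO_Fed and 15.71, 16.12 and 16.19 in LKO_Fasted. Hsd17b4 rose by 0.51 (SE 0.074, adjusted p = 1.09e-05) on fasting in LWT and rose by 1.06 (SE 0.0807, adjusted p = 8.17e-10) in LKO. Acaa1a and Acaa1b encode closely alike thiolases of the last step, and whether each probe reads only its own transcript was not examined. Acaa1a (probe on chromosome 9 at 119259353 to 119259412) read 15.80, 16.01 and 16.37 in LWT_Fed, 16.52, 16.56 and 16.80 in LWT_Fasted, 15.71, 15.81 and 15.99 in LKO_Fed and 16.23, 16.74 and 16.80 in LKO_Fasted. Acaa1a rose by 0.54 (SE 0.0899, adjusted p = 5.27e-05) on fasting in LWT and rose by 0.90 (SE 0.098, adjusted p = 1.63e-07) in LKO. A second Acaa1a probe gave 0.70 (adjusted p = 0.000424) and 1.67 (adjusted p = 1.47e-08), so both probes rose in both genotypes and the second was called in LWT. The probe used was itself called in LWT under 3 other settings, at 0.60 to 0.62, and at 0.64 without LWT_Fed replicate 4. Acaa1b (probe on chromosome 9 at 119057326 to 119057385) read 15.65, 16.13 and 16.51 in LWT_Fed, 16.42, 16.81 and 16.94 in LWT_Fasted, 14.94, 15.35 and 15.86 in LKO_Fed and 16.12, 17.35 and 17.58 in LKO_Fasted. Acaa1b rose by 0.63 (SE 0.162, adjusted p = 0.00322) on fasting in LWT and rose by 1.95 (SE 0.176, adjusted p = 1.04e-08) in LKO. Its LWT call was lost at 0.56 to 0.58 in 4 fits with 1 mouse left out, LWT_Fed replicate 2 or 6 or LWT_Fasted replicate 1 or 4. Fed and fasted mice overlapped for Acaa1b in LWT but not in LKO.

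Acox2 and Decr2 moved less. Acox2 encodes the oxidase for branched chains and bile acid precursors. Acox2 read 14.32, 14.55 and 14.80 in LWT_Fed, 14.82, 14.92 and 15.09 in LWT_Fasted, 14.47, 14.58 and 14.78 in LKO_Fed and 14.53, 14.66 and 14.97 in LKO_Fasted. Acox2 rose by 0.31 (SE 0.0731, adjusted p = 0.00176) on fasting in LWT and gave a log2 change of 0.14 (SE 0.0797, adjusted p = 0.179) in LKO. A second Acox2 probe gave 0.22 (adjusted p = 0.0676) in LWT. Decr2, the peroxisomal dienoyl-CoA reductase, rose by 0.42 (SE 0.0678, adjusted p = 3.36e-05) in LWT and 0.20 (SE 0.0739, adjusted p = 0.0318) in LKO. Alpha-oxidation removes a carbon from chains whose branch blocks beta-oxidation. Its hydroxylase gene Phyh rose by 0.19 (SE 0.0531, adjusted p = 0.00602) in LWT and gave -0.10 (SE 0.0579, adjusted p = 0.182) in LKO. Hacl1 encodes the lyase of the same route. Hacl1 read 14.90, 15.05 and 15.19 in LWT_Fed, 15.04, 15.32 and 15.55 in LWT_Fasted, 14.39, 15.00 and 15.13 in LKO_Fed and 15.26, 15.60 and 16.04 in LKO_Fasted. Hacl1 gave a log2 change of 0.23 (SE 0.108, adjusted p = 0.0946) on fasting in LWT and rose by 0.74 (SE 0.118, adjusted p = 2.98e-05) in LKO, with fed and fasted mice apart in LKO and overlapping in LWT.

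Genes of transport, export and growth of peroxisomes also rose, with exceptions. Abcd3 encodes an ABC transporter that brings acyl-CoA into the peroxisome (probe on chromosome 3 at 121461892 to 121461951). Abcd3 read 15.84, 15.91 and 16.11 in LWT_Fed, 16.02, 16.19 and 16.53 in LWT_Fasted, 15.32, 15.58 and 15.74 in LKO_Fed and 15.76, 16.48 and 16.54 in LKO_Fasted. Abcd3 rose by 0.23 (SE 0.0905, adjusted p = 0.0449) on fasting in LWT and rose by 0.90 (SE 0.0986, adjusted p = 1.88e-07) in LKO. Its relative Abcd2 was dim. Abcd2 read 6.15, 6.99 and 8.40 in LWT_Fed, 6.41, 6.78 and 7.33 in LWT_Fasted, 6.24, 6.82 and 7.03 in LKO_Fed and 6.30, 6.91 and 7.21 in LKO_Fasted. Abcd2 gave a log2 change of -0.31 (SE 0.28, adjusted p = 0.404) on fasting in LWT and gave a log2 change of 0.09 (SE 0.305, adjusted p = 0.838) in LKO, and all 4 groups overlapped. Crot encodes carnitine octanoyltransferase, which prepares shortened chains for export. Crot read 13.21, 13.33 and 13.76 in LWT_Fed, 14.51, 14.59 and 14.77 in LWT_Fasted, 12.90, 13.42 and 13.66 in LKO_Fed and 14.22, 14.99 and 15.56 in LKO_Fasted. Crot rose by 1.20 (SE 0.148, adjusted p = 1.17e-06) on fasting in LWT and rose by 1.75 (SE 0.162, adjusted p = 1.52e-08) in LKO. Fasted and fed mice did not overlap for Crot in either genotype.

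Pex11a encodes a membrane protein of peroxisome elongation and division (probe on chromosome 7 at 86882223 to 86882282). Pex11a read 14.67, 15.13 and 15.58 in LWT_Fed, 16.55, 16.72 and 17.11 in LWT_Fasted, 14.18, 14.25 and 14.56 in LKO_Fed and 15.54, 16.47 and 16.69 in LKO_Fasted. Pex11a rose by 1.55 (SE 0.136, adjusted p = 9.6e-09) on fasting in LWT and rose by 2.13 (SE 0.148, adjusted p = 2.2e-10) in LKO, with no overlap in either genotype. Pex19 encodes a carrier of peroxisomal membrane proteins. Pex19 read 12.61, 12.67 and 13.21 in LWT_Fed, 12.91, 13.16 and 13.30 in LWT_Fasted, 12.03, 12.26 and 12.44 in LKO_Fed and 12.76, 13.22 and 13.25 in LKO_Fasted. Pex19 rose by 0.44 (SE 0.0784, adjusted p = 0.000104) on fasting in LWT and rose by 0.94 (SE 0.0854, adjusted p = 1.16e-08) in LKO. The fed and fasted LKO mice did not overlap for Pex19. Cat encodes catalase, which removes the hydrogen peroxide made by peroxisomal oxidases. Cat read 16.22, 16.31 and 16.36 in LWT_Fed, 15.84, 16.24 and 16.33 in LWT_Fasted, 15.92, 16.03 and 16.11 in LKO_Fed and 15.15, 15.69 and 15.95 in LKO_Fasted. Cat gave a log2 change of -0.10 (SE 0.0778, adjusted p = 0.326) on fasting in LWT and fell by 0.31 (SE 0.0848, adjusted p = 0.00475) in LKO. In LKO catalase was the 1 gene of the 14 peroxisomal genes that fell.

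Acyl-CoA synthetases, which activate fatty acids before any route, did not move as 1 group. Acsl1 is the main synthetase of liver. Acsl1 read 15.69, 15.97 and 16.32 in LWT_Fed, 16.84, 16.99 and 17.31 in LWT_Fasted, 15.70, 15.86 and 16.10 in LKO_Fed and 16.30, 17.36 and 17.49 in LKO_Fasted. Acsl1 rose by 0.92 (SE 0.109, adjusted p = 6.9e-07) on fasting in LWT and rose by 1.43 (SE 0.119, adjusted p = 3.21e-09) in LKO. Acsl3 is bound to the endoplasmic reticulum and lipid droplets. Acsl3 read 8.62, 9.19 and 9.30 in LWT_Fed, 7.53, 7.77 and 8.32 in LWT_Fasted, 8.72, 9.12 and 9.44 in LKO_Fed and 8.01, 8.23 and 8.65 in LKO_Fasted. Acsl3 fell by 1.29 (SE 0.134, adjusted p = 1.18e-07) on fasting in LWT and fell by 0.90 (SE 0.146, adjusted p = 3.34e-05) in LKO, and it was called lower in both genotypes. A second Acsl3 probe fell by 0.81 (adjusted p = 1.55e-06) in LWT and by 0.53 (adjusted p = 0.000572) in LKO, the latter short of 1.5-fold. Acsl4 prefers arachidonate. Acsl4 read 12.69, 12.90 and 13.13 in LWT_Fed, 12.07, 12.39 and 12.95 in LWT_Fasted, 13.05, 13.34 and 13.61 in LKO_Fed and 13.05, 13.24 and 13.92 in LKO_Fasted. Acsl4 fell by 0.55 (SE 0.13, adjusted p = 0.00163) on fasting in LWT and gave a log2 change of -0.07 (SE 0.142, adjusted p = 0.721) in LKO. Of 2 further Acsl4 probes, both fell in LWT, by 0.64 (adjusted p = 0.00457), which was called, and by 0.53 (adjusted p = 0.00497). The probe used was itself called in LWT with processed signal scaled to the 75th percentile, at -0.60 (adjusted p = 0.00158), and in 4 fits with 1 mouse left out, LWT_Fed replicate 4 or LWT_Fasted replicate 2, 3 or 6, at -0.67 to -0.59. Acsl5 is found in the endoplasmic reticulum and mitochondria. Acsl5 read 13.64, 13.75 and 14.44 in LWT_Fed, 13.17, 13.45 and 13.68 in LWT_Fasted, 12.95, 13.37 and 13.54 in LKO_Fed and 13.25, 13.69 and 13.72 in LKO_Fasted. Acsl5 fell by 0.32 (SE 0.104, adjusted p = 0.0163) on fasting in LWT and rose by 0.29 (SE 0.113, adjusted p = 0.0421) in LKO. A second Acsl5 probe gave 0.16 (adjusted p = 0.313) in LWT and rose by 0.47 (adjusted p = 0.00603) in LKO, so the fall in LWT was seen with 1 probe only.

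Of 5 enzymes found in more than 1 place, 4 were called higher in both genotypes, with Crat at their head. The LWT call of Acad11 lay at the limit, and it was lost at 0.57 with the replicate number as a block and at 0.56 to 0.58 in 3 fits with 1 mouse left out, LWT_Fed replicate 2 or 6 or LWT_Fasted replicate 1. Crat encodes carnitine acetyltransferase, which moves acetyl and other short groups between coenzyme A and carnitine (probe on chromosome 2 at 30257684 to 30257743). Crat read 11.87, 12.17 and 12.81 in LWT_Fed, 13.53, 14.02 and 14.29 in LWT_Fasted, 11.37, 11.73 and 12.09 in LKO_Fed and 13.73, 14.31 and 14.52 in LKO_Fasted. Crat rose by 1.86 (SE 0.149, adjusted p = 2.7e-09) on fasting in LWT and rose by 2.59 (SE 0.162, adjusted p = 5.69e-11) in LKO. Acad11 encodes a further acyl-CoA dehydrogenase. Acad11 read 14.89, 15.10 and 15.17 in LWT_Fed, 15.61, 15.65 and 15.71 in LWT_Fasted, 14.51, 14.89 and 15.01 in LKO_Fed and 15.55, 15.92 and 16.02 in LKO_Fasted. Acad11 rose by 0.59 (SE 0.0764, adjusted p = 2.07e-06) on fasting in LWT and rose by 1.10 (SE 0.0832, adjusted p = 8.3e-10) in LKO. Ech1 encodes a dienoyl-CoA isomerase. Ech1 read 14.93, 15.13 and 15.32 in LWT_Fed, 15.54, 15.75 and 15.84 in LWT_Fasted, 14.75, 14.90 and 15.30 in LKO_Fed and 15.61, 15.97 and 16.15 in LKO_Fasted. Ech1 rose by 0.63 (SE 0.0883, adjusted p = 6.1e-06) on fasting in LWT and rose by 1.05 (SE 0.0962, adjusted p = 1.26e-08) in LKO. Eci2 encodes an enoyl-CoA isomerase. Eci2 read 14.80, 15.08 and 15.46 in LWT_Fed, 16.03, 16.20 and 16.45 in LWT_Fasted, 14.83, 15.12 and 15.27 in LKO_Fed and 15.75, 16.22 and 16.52 in LKO_Fasted. Eci2 rose by 1.03 (SE 0.0988, adjusted p = 3.92e-08) on fasting in LWT and rose by 1.16 (SE 0.108, adjusted p = 1.67e-08) in LKO. Fed and fasted mice did not overlap for these 4 genes in either genotype. Amacr, the racemase that prepares branched chains, gave 0.13 (SE 0.0591, adjusted p = 0.0788) in LWT and rose by 0.35 (SE 0.0644, adjusted p = 0.000156) in LKO.

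**Figure D3:**
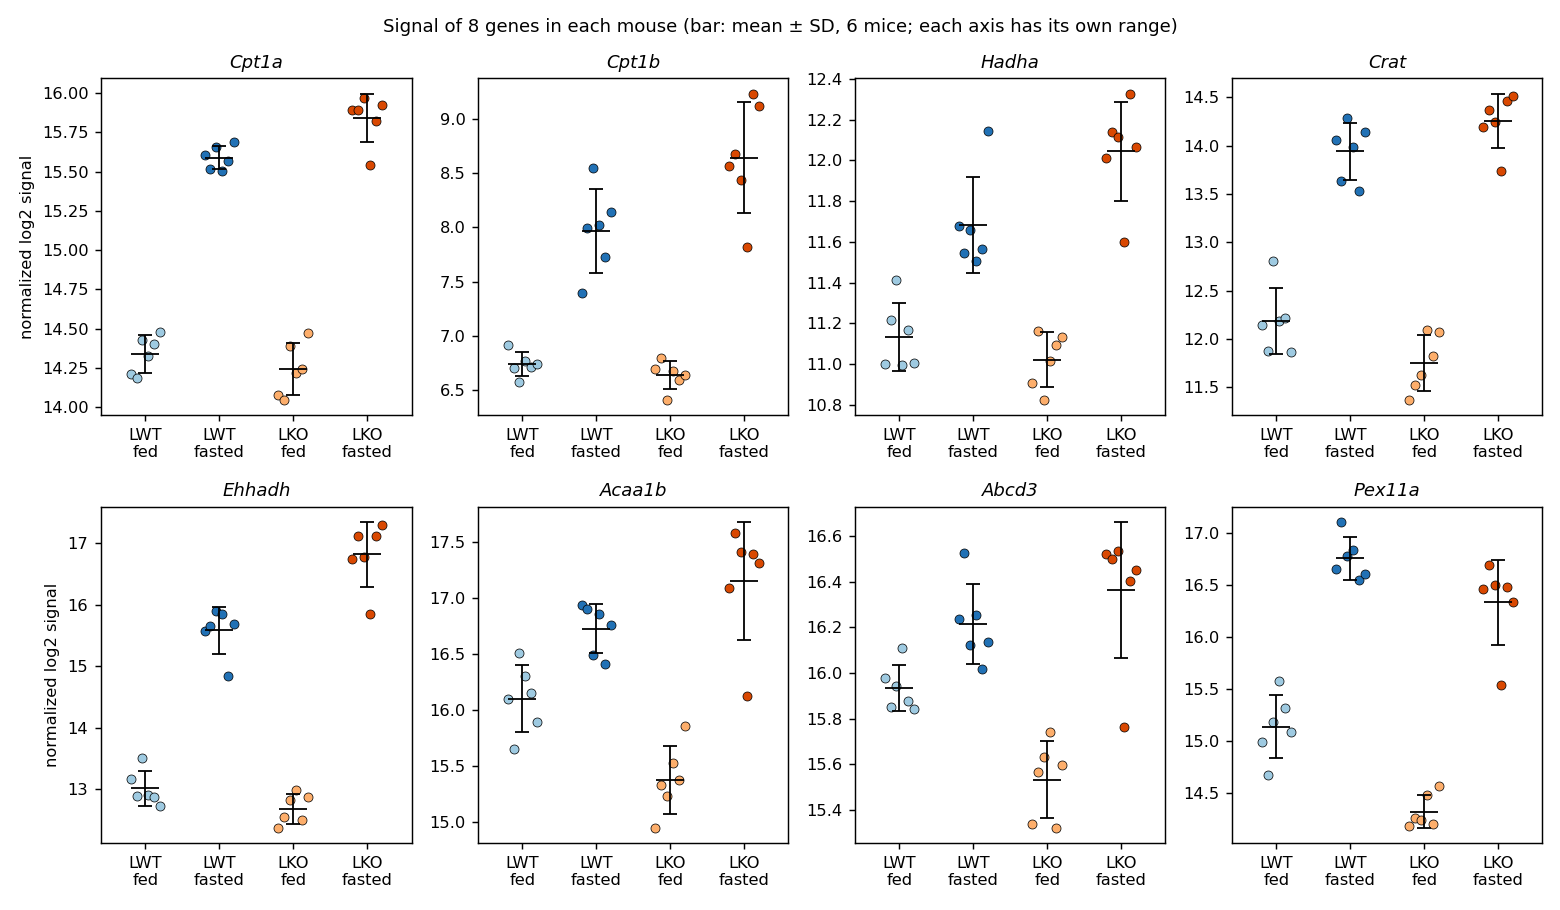
Normalized log2 signal (vertical axis, with a range of its own in each panel) of 8 genes in every mouse of the 4 groups (points; bars: mean ± SD, n = 6). Pex11a, Acaa1b and Abcd3 sit lower in LKO_Fed than in LWT_Fed, and for Ehhadh and Acaa1b most LKO_Fasted points lie above the LWT_Fasted points, with replicate 4 the low point of LKO_Fasted.

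Fed LKO livers had lower levels than fed LWT livers for 11 of the 41 genes, and the 2 genes called were peroxisomal. The share of all genes tested that were lower was 7.49%, and 1 of the 41 was higher, against 8.73%. Calls went to 2 genes lower, Pex11a and Acaa1b, against 1.18% of all genes. The log2 fold change was negative for 36 of the 41 genes, beside 53.7% of all genes, and its median was -0.13, beside -0.01 over all genes. By place the median was -0.10 for the 18 mitochondrial genes, where 3 were lower, and -0.27 for the 14 peroxisomal genes, where 6 were lower. Within the 3 slides the median over the 41 genes was -0.05, -0.13 and -0.15. Without array weights 6 genes were lower and the 2 calls stayed. LKO_Fed replicate 1 was the lowest mouse of its group for 29 of the 41 genes, and without it the medians were -0.06 for mitochondrial and -0.22 for peroxisomal genes. Adipose markers moved in these arrays as well, with 1 of the 6 tested called lower in LKO_Fed, Cfd at -2.78 (SE 0.726, adjusted p = 0.0119). The mean level of the 6 ranged from 6.75 to 6.92 in LKO_Fed and from 7.26 to 7.80 in LWT_Fed, and its part in the result was not tested. Of the markers of other liver cells, 1 of 5 for cholangiocytes, 1 of 4 for erythroid cells and 1 of 6 for endothelium were called lower in LKO_Fed. Called higher, against 2.67% of all genes, were 1 of 3 for exocrine pancreas and 1 of 6 for periportal hepatocytes, while none of 6 for Kupffer cells or 6 for stellate cells was called.

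Pex11a was 0.85 (SE 0.137, adjusted p = 0.000356) lower in fed LKO livers, a 1.80-fold difference with no overlap between the 6 LKO_Fed mice and the 6 LWT_Fed mice. Acaa1b was 0.73 (SE 0.164, adjusted p = 0.00417) lower, and its groups overlapped in part. Abcd3 and Pex19 had no overlap either. In all, 5 of the 41 genes were lower in every LKO_Fed mouse, beside 3.33% of all genes tested, and 1 was higher in every mouse, beside 5.32%. Abcd3 was 0.40 (SE 0.0917, adjusted p = 0.00472) lower and Pex19 0.43 (SE 0.0794, adjusted p = 0.000896) lower, both short of 1.5-fold. Cat and Acsl5 also read lower in every LKO_Fed mouse than in any LWT_Fed mouse. Cat was 0.28 (SE 0.0788, adjusted p = 0.0176) lower and Acsl5 0.42 (SE 0.105, adjusted p = 0.00968) lower. Among the auxiliary enzymes and the electron carriers, smaller differences passed the test. Eci1 was 0.34 (SE 0.0962, adjusted p = 0.0208) lower, Decr1 0.27 (SE 0.0822, adjusted p = 0.0291) lower and Etfdh 0.26 (SE 0.0754, adjusted p = 0.0246) lower. Hsd17b4 was 0.31 (SE 0.075, adjusted p = 0.00738) lower and Acad11 0.23 (SE 0.0774, adjusted p = 0.0494) lower. Phyh was 0.26 (SE 0.0538, adjusted p = 0.00257) higher in LKO_Fed with no overlap. Of 5 genes that passed and had further probes, Acad11, Acsl5 and Etfdh had a further probe that did not pass. Further probes of 4 genes that had not passed did so, Acaa1a lower at -0.52 (adjusted p = 0.017) and Acadsb, Acsl4 and Crot higher. The entry steps did not pass the test, with -0.08 (SE 0.0747, adjusted p = 0.496) for Cpt1a, -0.12 (SE 0.0719, adjusted p = 0.287) for Cpt2 and -0.14 (SE 0.167, adjusted p = 0.624) for Cpt1b. Ehhadh, which rose most on fasting, gave -0.26 (SE 0.186, adjusted p = 0.387). For Crot the probes disagreed, with -0.11 (SE 0.15, adjusted p = 0.673) for the probe used and 0.71 (adjusted p = 0.0288) for a second probe.

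In fasted mice 17 of the 41 genes were higher in LKO than in LWT, against 9.79% of all genes tested, and 3 were lower, against 10.3%. Calls went to 4 genes higher, against 1.79% of all genes, and by limma to none lower. The median log2 fold change of the 41 genes was 0.21, beside 0.00 over all genes, and it was 0.20 for mitochondrial and 0.11 for peroxisomal genes. It was positive for 33 of the 41 genes, beside 49.2% of all genes, and on the 3 slides taken singly for 21, 32 and 33. The peroxisomal median was 0.04 without array weights and 0.18 without LKO_Fasted replicate 6, and within the 3 slides it was -0.13, 0.11 and 0.24. The 4 genes called were Ehhadh, Acsl4, Cpt1b and Acaa1b. Without LKO_Fasted replicate 4 the count higher was 21 and the calls stayed at 4, whereas without replicates 1 and 2 it was 10 with 4 calls. Without array weights 10 were higher and 3 were called. Within the 3 slides the median was 0.01, 0.18 and 0.26, and the slide at 0.01 held LKO_Fasted replicates 2 and 4. That slide also held LWT_Fasted replicate 2, with an array weight of 0.442.

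Ehhadh was 1.34 (SE 0.198, adjusted p = 7.48e-05) higher in LKO_Fasted, or 2.53-fold, and 1.43 higher (SE 0.181, adjusted p = 1.54e-05) without replicate 4. Acsl4 was 0.85 (SE 0.141, adjusted p = 0.00021) higher, and it was the 1 gene of the 41 whose LKO_Fasted mice all lay above the LWT_Fasted mice, beside 4.1% of all genes tested, so the 41 genes did not exceed that share. Cpt1b was 0.73 (SE 0.178, adjusted p = 0.0054) higher, and its call was lost at 0.58 without LWT_Fasted replicate 1. A second Crot probe was 0.85 (adjusted p = 0.0111) higher, whereas the probe used gave 0.43 (SE 0.16, adjusted p = 0.0634). Acaa1b was 0.59 (SE 0.174, adjusted p = 0.0198) higher, just past 1.5-fold. Its call was lost under 8 other settings, where it lay between 0.43 and 0.58, the lowest without array weights (adjusted p = 0.146), and in 9 further fits with 1 mouse left out, at 0.53 to 0.58. Of the 17 genes that were higher, 10 were mitochondrial and most of these stayed below 1.5-fold. Of 10 genes that passed and had further probes, 8 had a further probe that did not pass, namely Acad11, Acsl1, Cpt2, Echs1, Etfb, Etfdh, Hacl1 and Hadhb. Further probes of 3 genes that had not passed did so, Acaa1a at 0.46 (adjusted p = 0.0394), Acox2 at -0.30 (adjusted p = 0.0412) and Crot. Acadl was 0.49 (SE 0.0865, adjusted p = 0.00042) higher, Hadha 0.39 (SE 0.0996, adjusted p = 0.0078) higher and Hadhb 0.39 (SE 0.0729, adjusted p = 0.000648) higher. Cpt1a was 0.29 (SE 0.0796, adjusted p = 0.0113) higher, Cpt2 0.24 (SE 0.0766, adjusted p = 0.0278) higher and Acadvl 0.21 (SE 0.0594, adjusted p = 0.0177) higher. Acadm gave 0.11 (SE 0.0844, adjusted p = 0.377). The 3 genes that were lower did not belong to 1 route. Cat was 0.50 (SE 0.0839, adjusted p = 0.000261) lower, Acadsb 0.37 (SE 0.0877, adjusted p = 0.00471) lower and Echs1 0.25 (SE 0.0661, adjusted p = 0.0108) lower. Pex11a, lower in the fed state, gave -0.26 (SE 0.146, adjusted p = 0.224).

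Markers of hepatocyte position in the lobule moved in the same arrays. In LKO_Fasted against LWT_Fasted, 2 of 6 periportal markers were called lower, Hal at -0.88 (SE 0.182, adjusted p = 0.00164) and Cyp2f2 at -0.59 (SE 0.168, adjusted p = 0.0161). Likewise 2 of 6 pericentral markers were called lower, Lect2 at -1.01 (SE 0.142, adjusted p = 4.52e-05) and Cyp1a2 at -0.79 (SE 0.154, adjusted p = 0.000976). The mean level of the periportal list ranged from 15.29 to 16.31 in LKO_Fasted and from 15.81 to 15.99 in LWT_Fasted, and that of the pericentral list from 13.94 to 14.60 and from 14.56 to 14.74. No marker of either list was called higher in that comparison, and over all genes tested 2.22% were called lower. Of 6 adipose markers 1 was called higher and 2 lower, and the mean level ranged from 6.88 to 7.33 in LKO_Fasted and from 6.98 to 8.53 in LWT_Fasted. Of the other lists, 1 of 5 cholangiocyte and 1 of 4 erythroid markers were called lower and 1 of 3 exocrine pancreas markers higher. In the interaction described next, 2 of 6 periportal markers were called lower, Hal and Sds, with a list median of -0.54, and 2 of 6 pericentral markers, Cyp1a2 and Lect2, with a list median of -0.21, against 1.48% of all genes tested. There 1 of 6 adipose markers, Fabp4, was called higher. The part of these markers in the differences of the oxidation genes was not tested.

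**Figure D4:**
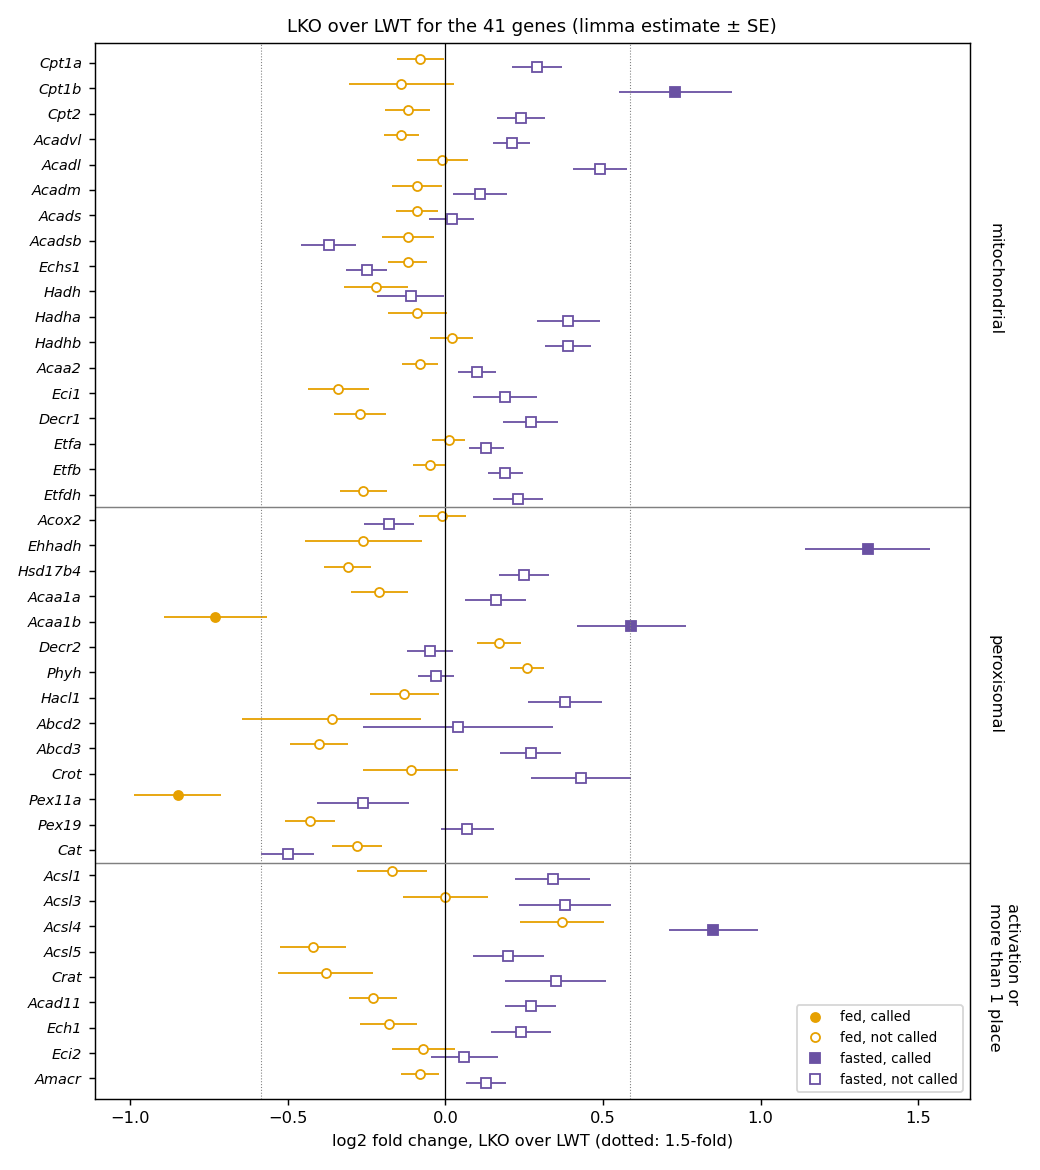
Difference between genotypes for each of the 41 genes in fed (circles) and in fasted mice (squares) (horizontal axis: log2 fold change, LKO over LWT, limma estimate ± SE; vertical axis: genes by place; filled: called; dotted lines: 1.5-fold either way). Circles lie mostly left of 0, with Pex11a at -0.85, and squares mostly right of 0, with Ehhadh at 1.34.

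Whether the fasting response itself depended on p110α was tested as an interaction, which is the LKO value of the fasting change less the LWT value. The response was more positive in LKO for 18 of the 41 genes, against 3.95% of all genes tested, and more negative for 1, against 3.61%. Calls went to 6 genes higher, against 1.51% of all genes. The median interaction was 0.41, beside 0.00 over all genes, with 0.35 for mitochondrial, 0.50 for peroxisomal and 0.48 for the remaining genes. It was positive for 35 of the 41 genes, beside 49.7% of all genes. Without LKO_Fasted replicate 4 the response was more positive for 23 genes and 10 were called, and without replicates 1 and 2 it was so for 14 and 5 were called. Without array weights it was so for 7 genes and 3 were called, and without LWT_Fasted replicate 5 the number called was also 3. Probes of a gene differed in whether they passed. Of the 19 genes that passed, 8 had further probes, and for each of these at least 1 further probe did not pass. Within the 3 slides the median was 0.10, 0.35 and 0.47, the lowest again on the slide that held replicate 4. That slide also held LWT_Fed replicate 3 and LWT_Fasted replicate 2, with array weights of 0.317 and 0.442. What sets the slide apart was not tested.

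Ehhadh had the largest interaction, 1.60 (SE 0.272, adjusted p = 0.00121), and 1.69 (SE 0.246, adjusted p = 0.000277) without replicate 4. Within the 3 slides it was 1.29, 1.80 and 1.59. For Acaa1b the interaction was 1.32 (SE 0.239, adjusted p = 0.00196), made of a lower fed level and a higher fasted level in LKO, and within slides it was 0.76, 1.40 and 1.29. Ehhadh and Acaa1b were called under all 36 other settings run for the interaction, which include each mouse left out in turn. Abcd3 gave 0.67 (SE 0.134, adjusted p = 0.00438) and lost its call in 1 of the 36, without array weights, at 0.55 (adjusted p = 0.0447). Acsl5 gave 0.61 (SE 0.153, adjusted p = 0.0181), falling in LWT and rising in LKO, while its second probe gave 0.31 (adjusted p = 0.313). Acsl5 lost its call in 4 of the 36, at 0.47 with the mean of all probes and at 0.55 to 0.58 without LWT_Fasted replicate 4 or 5 or LKO_Fed replicate 5. Cpt1b gave 0.88 (SE 0.243, adjusted p = 0.0322) and Crat 0.73 (SE 0.22, adjusted p = 0.0482). These calls depended on the setting, since Cpt1b lost its call in 11 and Crat in 20 of the 36. A second Crat probe gave 0.45 (adjusted p = 0.0672). In fasted mice alone the difference did not pass by limma for Abcd3 at 0.27 (adjusted p = 0.0603), Crat at 0.35 (adjusted p = 0.14) or Acsl5 at 0.20 (adjusted p = 0.232). In fed mice Abcd3 and Acsl5 were lower in LKO, at -0.40 and -0.42, and Crat gave -0.38 (adjusted p = 0.093). Ehhadh, Acaa1b and Cpt1b were called higher in LKO_Fasted.

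Of the 18 mitochondrial genes, 10 passed the interaction test, Cpt1b above and 9 below 1.5-fold. For Cpt1a the interaction was 0.38 (SE 0.109, adjusted p = 0.0387) and for Cpt2 0.36 (SE 0.105, adjusted p = 0.0392). Acadl gave 0.49 (SE 0.119, adjusted p = 0.0146) and Acadvl 0.34 (SE 0.0815, adjusted p = 0.0138), whereas Acadm gave 0.20 (SE 0.116, adjusted p = 0.32) and did not pass. For the trifunctional protein it was 0.48 (SE 0.137, adjusted p = 0.0365) for Hadha and 0.37 (SE 0.0999, adjusted p = 0.0283) for Hadhb. The further probes of Hadhb gave 0.32 (adjusted p = 0.109) and 0.02 (adjusted p = 0.978), and a further probe of Cpt2 gave 0.24 (adjusted p = 0.323). The other 7 mitochondrial genes, Acads, Acadsb, Echs1, Hadh, Acaa2, Etfa and Etfb, did not pass and lay between -0.25 for Acadsb and 0.24 for Etfb. In the auxiliary steps Decr1 gave 0.54 (SE 0.12, adjusted p = 0.00851) and Eci1 0.53 (SE 0.14, adjusted p = 0.0248), and at the electron carriers Etfdh gave 0.49 (SE 0.11, adjusted p = 0.00982), with 0.28 (adjusted p = 0.378) from a further probe. Peroxisomal genes that passed below 1.5-fold were Hsd17b4 with 0.56 (SE 0.109, adjusted p = 0.0037) and Pex19 with 0.50 (SE 0.116, adjusted p = 0.0118), and Acad11 gave 0.50 (SE 0.113, adjusted p = 0.00963). A further Pex19 probe gave 0.32 (adjusted p = 0.149), and further Acad11 probes gave 0.30, -0.08 and 0.31 (adjusted p = 0.218, 0.867 and 0.151). Pex11a gave 0.58 (SE 0.2, adjusted p = 0.0814) and did not pass, although it was lower in LKO_Fed, rose in both genotypes, and was called at 0.66 (adjusted p = 0.0198) without replicate 4. Acaa1a gave 0.36 (SE 0.133, adjusted p = 0.101) with the probe used and 0.98 (adjusted p = 0.00709) with its second. With the probe used, Phyh had a more negative change in LKO, -0.29 (SE 0.0785, adjusted p = 0.0282), while its second probe gave -0.25 (adjusted p = 0.0742). Both further probes of Acadsb passed with a more negative change, -0.44 (adjusted p = 0.00685) and -0.55 (adjusted p = 0.0321). The remaining named genes gave no interaction that passed. Crot at 0.54 (SE 0.219, adjusted p = 0.14), Hacl1 at 0.51 (SE 0.16, adjusted p = 0.059) and Acsl1 at 0.51 (SE 0.161, adjusted p = 0.0595) were the largest of these after Pex11a. With the replicate number as a block in place of slide, Crot and Pex11a were both called at 0.59 (adjusted p = 0.0454 and 0.0354). Acsl4 gave 0.48 (SE 0.193, adjusted p = 0.136), Ech1 0.42 (SE 0.13, adjusted p = 0.0533) and Acsl3 0.39 (SE 0.198, adjusted p = 0.255). Smaller or negative values came from Eci2 at 0.13 (SE 0.146, adjusted p = 0.652), Acox2 at -0.17 (SE 0.108, adjusted p = 0.371) and Cat at -0.21 (SE 0.115, adjusted p = 0.279). Dim Abcd2 gave 0.41 (SE 0.414, adjusted p = 0.609). The fasting and genotype comparisons share arrays with each other and with the interaction, so their values are not independent.

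Other genes of the pathway were counted from lists. A list named for a place also holds genes whose proteins lie elsewhere, so its counts do not describe that compartment alone. Of 23 further genes listed with mitochondria, 6 were called higher and 2 lower on fasting in LWT, and 5 higher and 4 lower in LKO. The shares of all genes tested were 4.79%, 5.20%, 5.87% and 6.82% in the same order. The median change of the 23 genes was 0.12 in LWT and -0.05 in LKO, so these medians lay below those of the 41 genes. Slc22a5, the carnitine uptake transporter of the cell surface, rose by 2.74 (SE 0.112, adjusted p = 1.6e-13) in LWT and 3.54 (SE 0.122, adjusted p = 2.24e-14) in LKO, with an interaction of 0.80 (SE 0.166, adjusted p = 0.00577). Slc25a20, the carnitine-acylcarnitine carrier between Cpt1a and Cpt2, rose by 0.97 (SE 0.0926, adjusted p = 3.6e-08) and 1.43 (SE 0.101, adjusted p = 2.85e-10). Acaca and Acacb make malonyl-CoA, the inhibitor of carnitine palmitoyltransferase. Acaca fell by 2.14 (SE 0.0967, adjusted p = 8.13e-13) in LWT and by 1.36 (SE 0.105, adjusted p = 1.11e-09) in LKO. Acacb fell by 1.17 (SE 0.213, adjusted p = 0.000136) in LWT and gave -0.07 (SE 0.232, adjusted p = 0.84) in LKO. For both genes the interaction was called, at 0.78 (SE 0.143, adjusted p = 0.00229) for Acaca and 1.10 (SE 0.315, adjusted p = 0.0379) for Acacb. Over the 23 genes the interaction was called higher for 3, these 2 and Slc22a5, against 1.51% of all genes, and lower for 1, Acsm1 at -0.61 (SE 0.101, adjusted p = 0.000923), against 1.48%. Its median over the list was -0.06, beside 0.35 for the 18 mitochondrial genes above.

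Of 25 further genes listed with peroxisomes and tested, 4 were called higher and 3 lower on fasting in LWT. In LKO 6 were called higher and 4 lower, and the shares of all genes were those given above. Without the minimum fold 6 rose and 9 fell in LWT, against 19.4% and 21.3% of all genes, and 8 rose and 9 fell in LKO, against 19.6% and 21.7%. The median change was -0.07 in LWT and -0.06 in LKO. The interaction was called higher for 1 and lower for 2 of the 25, against 1.51% and 1.48% of all genes, with a median of 0.15. Eci3, an enoyl-CoA isomerase, rose by 1.21 (SE 0.0981, adjusted p = 3.26e-09) in LWT and 1.35 (SE 0.107, adjusted p = 1.51e-09) in LKO. The largest changes were falls. Nudt7, a hydrolase of coenzyme A, fell by 1.92 (SE 0.186, adjusted p = 4.3e-08) in LWT and by 1.57 (SE 0.203, adjusted p = 1.8e-06) in LKO. Pmvk, a kinase of the mevalonate pathway, fell by 1.82 (SE 0.147, adjusted p = 3.14e-09) in LWT and fell by 1.52 (SE 0.161, adjusted p = 1.13e-07) in LKO. Pecr, a peroxisomal reductase that serves chain elongation, fell by 1.05 (SE 0.0692, adjusted p = 1.11e-10) in LKO and differed by -1.09 (SE 0.0685, adjusted p = 2.83e-09) between LKO_Fasted and LWT_Fasted. Of 14 peroxins, proteins that build peroxisomes, 7 rose and 3 fell in LWT below 1.5-fold, against 19.4% and 21.3% of all genes. In LKO 8 rose and 2 fell, against 19.6% and 21.7%, and 4 were called higher, against 5.87%. Their median was 0.21 in LWT and 0.25 in LKO, and the interaction passed for 1 of the 14, against 3.95% of all genes, without reaching 1.5-fold. Pex16 and Pex13 led in LKO, with 1.0 (SE 0.0944, adjusted p = 2.01e-08) and 0.85 (SE 0.0705, adjusted p = 3.11e-09).

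Of 19 regulators, 8 were called higher and 1 lower on fasting in LWT, and 4 higher and 1 lower in LKO, beside 4.79%, 5.20%, 5.87% and 6.82% of all genes. Lpin2, a phosphatidate phosphatase with a coactivator role, rose by 1.12 (SE 0.192, adjusted p = 7e-05) in LWT and 1.28 (SE 0.21, adjusted p = 4.03e-05) in LKO. Ppargc1b, a coactivator of oxidative genes, rose by 1.10 (SE 0.119, adjusted p = 1.86e-07) and 0.81 (SE 0.129, adjusted p = 2.91e-05). Both genotypes thus shared these rises. Ppara rose by 0.89 (SE 0.0634, adjusted p = 4.27e-10) in LWT and 0.87 (SE 0.069, adjusted p = 1.53e-09) in LKO. Creb3l3, a partner of PPARα in the fasted liver, rose by 0.59 (SE 0.0537, adjusted p = 1.87e-08) and 0.95 (SE 0.0585, adjusted p = 4.52e-11). Ppargc1a, a relative of Ppargc1b, rose by 0.99 (SE 0.236, adjusted p = 0.00182) in LWT and gave 0.56 (SE 0.257, adjusted p = 0.0846) in LKO. The interaction was called for 1 of the 19, Foxo1, a transcription factor held back by insulin, at -0.66 (SE 0.167, adjusted p = 0.0186), against 1.48% of all genes called lower. Without the minimum fold it was more positive in LKO for 1 of the 19 and more negative for 1, against 3.95% and 3.61% of all genes.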

How the data were processed

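RNA from 24 livers was hybridised in 1 colour to 24 Agilent mouse arrays, on 3 slides with 2 mice of every group each. The scanner intensities were deposited as Feature Extraction (version 10.10.1.1, per the file headers) wrote them. A table of log2 values, which the authors normalized, was also deposited and served as an alternative. Each of its columns had a median of 8.06 and, centred by probe, correlated best with its own array's scanner values for 24 of 24 arrays, so scale and direction are known. Here the median spot intensity was taken as log2 and quantile-normalized without background subtraction, following the authors' methods. Of 56605 probes, 32197 were kept because they were well above background on at least 5 of 6 arrays of a group. The probe with the highest mean level stood for a gene. limma 3.58.1 in R 4.3.3 was fitted to all groups with array weights and a slide term, since the labels do not name the washing bath. The p-values were adjusted over all 32197 kept probes by Benjamini-Hochberg, and shares of all genes were counted over 21372 genes. Each array came from 1 mouse, and the p-values measure the spread between mice.

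The 41 genes and all lists were chosen with earlier results of these data known. Values in each group are given for 14 genes chosen for their place in the pathway and for every other gene called in a comparison, 31 in all. The other 10 are given by their changes. Genes of other lists are named only where called, apart from 3 muscle markers that were not above background. Placing the results without LKO_Fasted replicate 4 beside the others was decided after the data were seen, as were array weights by REML. Calls were also made under other settings, and the code was tested on simulated data. The paper's comparisons were not used.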

Additional observations from a re-analysis of the deposited data

Results flagged for a closer look

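Values of single mice were examined in 136 sets of 6 mice, each being 1 gene or class mean in 1 group, and in 22 of them the extreme mouse lay further from the nearest other than the critical value of Dixon's test allows, where chance gives about 1 set in 20. Most of these were LKO_Fasted replicate 4 at the low end. For mitochondrial genes its signal was 15.54 for Cpt1a, 15.76 for Acadm, 15.09 for Hadhb, 15.38 for Eci1 and 16.33 for Decr1. For peroxisomal genes it was 15.71 for Hsd17b4, 16.23 for Acaa1a, 16.12 for Acaa1b, 15.76 for Abcd3, 15.54 for Pex11a and 12.76 for Pex19. Acsl1 at 16.30, Acsl5 at 13.25 and Acad11 at 15.55 were also low in this mouse, as were the mean centred levels of mitochondrial genes, 0.10, and of peroxisomal genes, -0.01. The genes of 1 mouse share an array and are not independent.

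In LWT_Fed replicate 3, whose array weight was 0.317, Pex19 at 13.21, Acsl5 at 14.44 and Crat at 12.81 were the high points. Hadha was high in LWT_Fasted replicate 6 at 12.15, Etfdh was high in LWT_Fasted replicate 2 at 15.11, and Ehhadh was low in LWT_Fasted replicate 5 at 14.85.

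The fasting change differed between genotypes by the interaction test with a difference over 1.5-fold for Ehhadh at 1.60, Acaa1b at 1.32, Cpt1b at 0.88, Crat at 0.73, Abcd3 at 0.67 and Acsl5 at 0.61 on the log2 scale.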

How the results depend on the processing

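Counts of the 41 genes called stayed within 1.5 times of those reported under 12 of 13 other settings that kept the minimum fold. They ranged from 18 to 22 for fasting in LWT, 26 to 26 in LKO, 2 to 2 for genotype in fed mice, 3 to 5 in fasted mice and 3 to 8 for the interaction. The 3 arose without array weights, where the median interaction of mitochondrial genes was 0.25, and it was 0.27 with the mean of all probes of a gene. With no minimum fold the counts were 33 for fasting in LWT, 12 for genotype in fed mice, 20 in fasted mice and 19 for the interaction. No direction of a called value or median turned. With each mouse left out in turn the counts ranged from 17 to 22, 26 to 26, 2 to 2, 3 to 4 and 3 to 10 in the same order, the interaction being 3 without LWT_Fasted replicate 5 and 10 without LKO_Fasted replicate 4. Medians of mitochondrial genes then ranged from 0.55 to 0.62, 1.07 to 1.15, -0.13 to -0.06, 0.18 to 0.24 and 0.30 to 0.37, and of peroxisomal genes from 0.41 to 0.46, 0.87 to 0.95, -0.30 to -0.22, 0.08 to 0.18 and 0.44 to 0.54. The causes were not tested.

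Same-numbered mice of different groups did not deviate together, with correlations from -0.179 to 0.275 and a median of -0.0311, so the numbers do not pair the samples. With the replicate number as a block in place of slide, the counts were 18, 26, 2, 3 and 8. The precision is limited by 6 mice a group.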
